A study of Mus musculus with 10 samples.

Results

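Polyamine metabolism was followed in 10 mouse neuroblastomas through the genes for its synthesis, its feedback control and its breakdown: Odc1, Amd1, Srm, Sms, Oaz1, Oaz2, Azin1, Sat1, Paox and Smox. The members were 10 genes chosen by name, and every array probe carrying one of these names was taken. The array names 8 of the 10 and carries 19 probes for them among 55681. A further 5 probes were assigned by accession or position: 2 that the array names Oaz2-ps list an accession of Oaz2, and 3 that it names Amd2 lie together on chromosome 10, where 2 of them also list an accession of Amd1. Amd1 and Amd2 could not be told apart with these probes and are written Amd1/Amd2. The Oaz2 values rest on that accession, and a pseudogene copy could share their signal.

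The ALK/MYCN group was 5 untreated tumours of mice with the genotype ALK+/-, MYCN+/- on a C57BL/6 x 129X1/SvJ background, whose ALK allele is the F1174L mutant of this receptor tyrosine kinase. The MYCN group was 5 untreated tumours of MYCN+/- mice on 129X1/SvJ. All 10 tumours thus carried the MYCN transgene. Strain background changes together with ALK genotype, so that their effects cannot be told apart. The promoters that drive the transgenes are not given in the sources used here. Each tumour RNA (Cy3) was hybridised to an Agilent 2-colour array together with a reference RNA of 11 mouse cell lines (Cy5), and values are given as log2 of tumour over reference after loess normalisation within the array. Differences are ALK/MYCN minus MYCN on this log2 scale, with the standard error (SE) and the p-value of limma adjusted by the Benjamini-Hochberg method over all 22234 genes measured, unless the text says over probes, and a gene is called at an adjusted p under 0.05. The number of arrays limits the precision. In bulk tumours, fewer cells of a type and less RNA per cell cannot be told apart.

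Polyamines (putrescine, spermidine and spermine) are small cations that bind nucleic acids and are needed for growth. Ornithine decarboxylase makes putrescine from ornithine, aminopropyl groups from decarboxylated S-adenosylmethionine extend it to spermidine and then spermine, antizymes bind ornithine decarboxylase and send it to the proteasome, and acetylation followed by oxidation turns the longer polyamines back. ODC1 is a known transcriptional target of MYC proteins, through E-box motifs, and has been studied as a drug target in neuroblastoma.

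The tissue markers bore out the label: Th and Dbh, genes of catecholamine synthesis in sympathetic neurons, averaged 4.52 and 3.32 in ALK/MYCN tumours and 4.29 and 3.13 in MYCN tumours. Th was called higher in ALK/MYCN tumours (adjusted p = 0.0139). Of the sympathetic tumour list, which includes Mycn, 5 of 12 genes were higher and 0 lower, against 14.2% higher of all genes. The Alk probe averaged 4.35 in ALK/MYCN and 4.28 in MYCN tumours (adjusted p = 0.837), and the Mycn probe 3.65 in ALK/MYCN and 0.80 in MYCN tumours (difference 2.85 ± 0.35 SE, adjusted p = 7.64e-04). Whether these probes detect the transgenes was not determined, so that they check neither genotype. In the tumour channel 53.8% to 58.7% of the spots stood well above background. Pairs of arrays correlated at 0.915 to 0.973 among ALK/MYCN tumours, at 0.867 to 0.937 among MYCN tumours and at 0.805 to 0.910 across the genotypes. Of the marker lists for other cells, 6 of 8 endothelial, 7 of 10 macrophage, 1 of 9 fibroblast, 2 of 6 muscle, 1 of 5 adipocyte and 4 of 4 erythroid genes measured were lower in ALK/MYCN tumours, and 4 of 5 Schwann cell genes were higher. The shares over all genes were 12.2% lower and 14.2% higher. Single tumours stood apart: ALK/MYCN 3 had adrenal cortex markers at 4.12 (mean log2 deviation from each gene's mean), against -0.57 to -0.33 in the other ALK/MYCN tumours, and MYCN 2 had muscle markers at 4.24, against -0.53 to 2.19 in the other MYCN tumours.

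The probes for Odc1 are shown because their agreement carries the main result. Of the 4 probes, 3 overlap on chromosome 12 (build mm9, plus strand); the stretch from base 17557869 is given for each, and capitals mark the bases past the end of the first probe.
Odc1 A_55_P1995173: aaagtatcttgaaataactggg
Odc1 A_55_P2035102: aaagtatcttgaaataactgggAAAAA
Odc1 A_55_P1982818: aaagtatcttgaaataactgggCATCG
The other probe, A_52_P436238, lies apart from them at chr12:17554799-17554858 on the plus strand.
Odc1 A_52_P436238: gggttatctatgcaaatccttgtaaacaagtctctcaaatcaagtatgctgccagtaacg
A_55_P1995173 and A_55_P2035102 overlap by 55 bases with 1 difference, T14G (the base of A_55_P1995173 first, its position counted from 1 at the 5′ end of that probe, then the base of A_55_P2035102). The oligos for Oaz1 and Paox come in similar pairs that share 54 bases; capitals mark the bases after the shared stretch, which are a run of A in one probe of each pair.
Oaz1 A_55_P2035454: caaatccaataaagtgatctcgttCATTGG
Oaz1 A_55_P2171047: caaatccaataaagtgatctcgttAAAAAA
Paox A_55_P1969181: gtacgcataaagcagttaacattg
Paox A_55_P2019751: gtacgcataaagcagttaacattgAAAAAA
Probes ending in 5 or more A were 3 of the 19 named for these genes, against 1.55% of all 55681 probes on the array. Such paired probes share nearly all their bases and are not separate measurements of a gene.

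Odc1 was lower, and Azin1 and Oaz2 were higher, in ALK/MYCN tumours; these were the 3 called genes of 10, with Amd1/Amd2 counted as 1 by its probe of highest intensity. Sat1 differed by as much as Odc1 on average and did not pass the threshold. Of all genes measured, 26.5% were called in either direction, 14.2% higher and 12.2% lower, so that 3 of 10 is close to the share of all genes. The genotypes did not overlap for the same 3 genes, against 20.0% of all genes. The median difference of the 10 was 0.03 and that of all genes -0.0037.

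**Figure D1:**
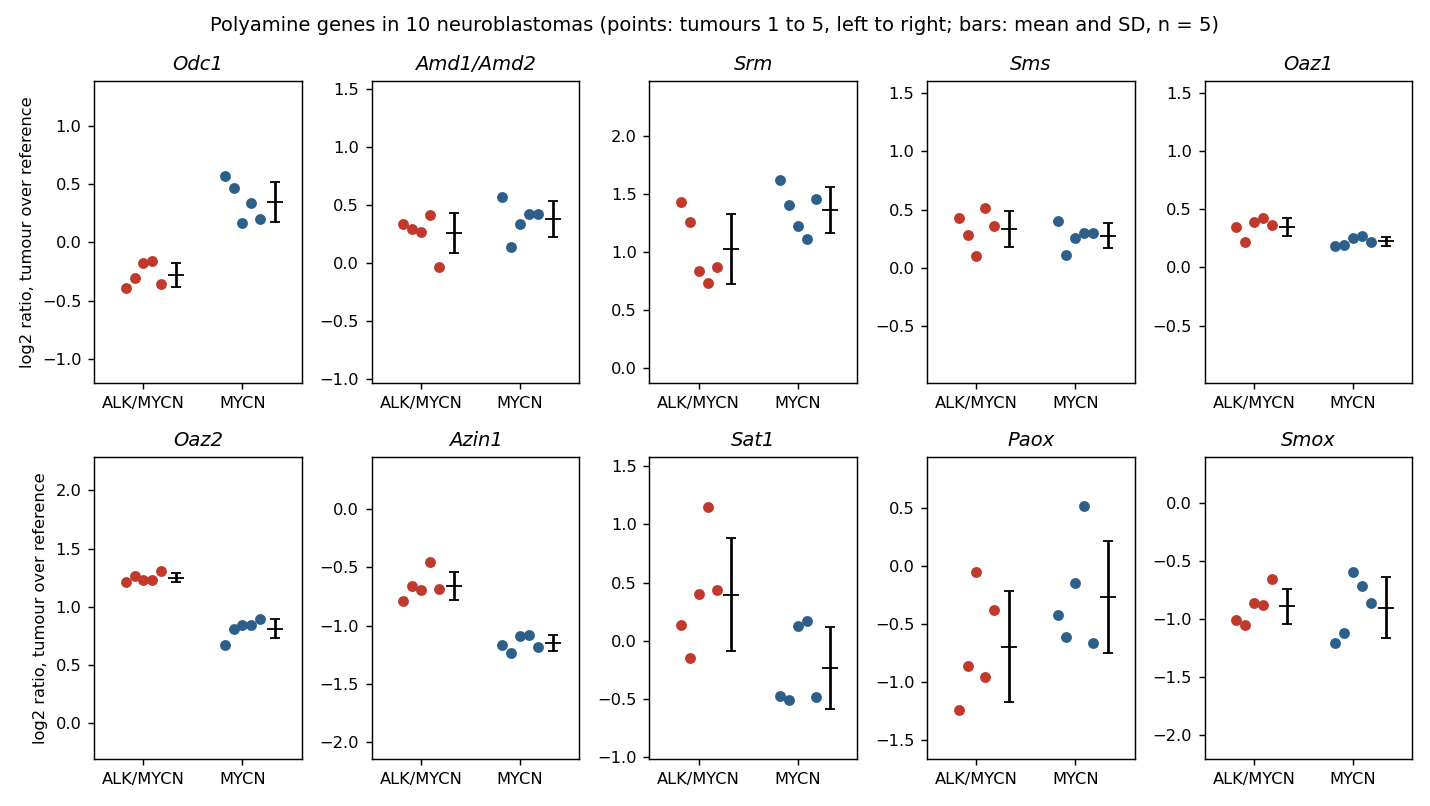
Log2 ratio of tumour over reference (y axis) of each polyamine gene, by its probe of highest mean intensity, in 5 ALK/MYCN tumours (left) and 5 MYCN tumours (right), with mean and SD; all panels span the same height in log2 units. The groups stand apart for Odc1, Oaz2 and Azin1 and overlap in the other panels.

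Odc1 encodes ornithine decarboxylase, the first and rate-limiting enzyme of the synthesis. Its probe of highest intensity read -0.39, -0.30, -0.18, -0.16 and -0.36 in ALK/MYCN tumours 1 to 5, and 0.57, 0.47, 0.17, 0.34 and 0.20 in MYCN tumours 1 to 5. Every ALK/MYCN tumour lay under every MYCN tumour. The mean was -0.28 ± 0.11 (SD, n = 5) in ALK/MYCN tumours, against 0.35 ± 0.17 (SD, n = 5) in MYCN tumours. The difference was -0.63 ± 0.09 SE (95% confidence interval -0.83 to -0.42, adjusted p = 0.00149), which puts the ALK/MYCN level at 0.647 times the MYCN level. By p-value the gene ranked at 645 among the 22234.

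All 4 Odc1 probes were lower without overlap, by differences of -0.63 to -0.62. Of all probes kept, 18.9% had no overlap. The separate probe A_52_P436238 read -0.38 to -0.11 in the ALK/MYCN tumours, against 0.31 to 0.61 in the MYCN tumours (difference -0.63 ± 0.08 SE, adjusted p over probes = 8.34e-04). Within the slides, each of which carried both genotypes, the Odc1 difference was -0.88, -0.59 and -0.64 on slides 1, 2 and 3. These slides held 1, 3 and 1 ALK/MYCN tumours and 1, 1 and 3 MYCN tumours. Each difference within a slide, here and below, thus rests on a single tumour of at least 1 genotype. Genes of proliferation were lower in ALK/MYCN tumours as well, 7 of 10 on that list, against 12.2% of all genes. The mean deviation of the list lay between -0.26 and -0.09 in ALK/MYCN tumours, against 0.05 and 0.41 as the lowest and highest MYCN values. The part of proliferation in the Odc1 difference was not tested.

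S-adenosylmethionine decarboxylase, encoded by Amd1, supplies the aminopropyl groups, and its probes did not agree. The probes are given by their first 30 bases, minus strand of chromosome 10 (mm9), to show that they read separate stretches.
Amd1/Amd2 A_55_P2014506, chr10:40007325-40007354: gttggtgttggacttttaatcagctgaaat
Amd1/Amd2 A_55_P2121252, chr10:40008706-40008735: ctgacatctgtgactgttctattaaattga
Amd1/Amd2 A_55_P2014511, chr10:40009166-40009195: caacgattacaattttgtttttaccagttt
The probe of highest intensity, A_55_P2014506, averaged 0.25 ± 0.17 in ALK/MYCN tumours, against 0.38 ± 0.16 in MYCN tumours (SD, n = 5 each) and did not pass (difference -0.12 ± 0.10 SE, adjusted p = 0.413). A_55_P2014511 read -0.63, -0.37, -0.63, -0.50 and -0.89 in ALK/MYCN tumours and -0.06, -0.14, -0.27, -0.27 and -0.25 in MYCN tumours, with no overlap (difference -0.41 ± 0.10 SE, adjusted p over probes = 0.0136), and median centring ended this call (-0.26, 0.0845). A_55_P2121252 was lower with overlap at 1 tumour of each genotype (-0.36 ± 0.10 SE, adjusted p over probes = 0.0291), and this call was lost without any 1 of ALK/MYCN 1, 2, 4 and 5 and MYCN 4 (adjusted p over probes 0.0523 to 0.0652), with median centring (-0.21, 0.176) and with slide as a block (0.0778). The mean over the 3 probes differed by -0.30 ± 0.07 SE (adjusted p = 0.0137), so that the choice of probe decides the call for Amd1/Amd2.

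The aminopropyltransferases showed no called difference. Srm, which encodes spermidine synthase, read 1.43, 1.26, 0.84, 0.73 and 0.87 in ALK/MYCN tumours and 1.62, 1.40, 1.22, 1.11 and 1.46 in MYCN tumours. ALK/MYCN 3, 4 and 5 lay under all MYCN tumours, and ALK/MYCN 1 and 2 lay within the MYCN range. The difference was -0.34 ± 0.15 SE (confidence interval -0.67 to -0.0042, adjusted p = 0.124), and its other probe gave -0.39 ± 0.17 SE. Within slides 1, 2 and 3 it was -0.36, -0.12 and -0.49. Without ALK/MYCN 1 Srm passed, with -0.44 and an adjusted p of 0.047. Sms, which encodes spermine synthase, averaged 0.34 ± 0.16 in ALK/MYCN tumours, against 0.28 ± 0.11 in MYCN tumours (SD, n = 5 each; difference 0.06 ± 0.09 SE, interval -0.14 to 0.26, adjusted p = 0.657). Its other probes gave 0.02 and 0.20, neither of them called (adjusted p over probes = 0.848 and 0.0736); with median centring A_55_P2115995, the probe of 0.20, was 0.31 and passed (0.0457).

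**Figure D2:**
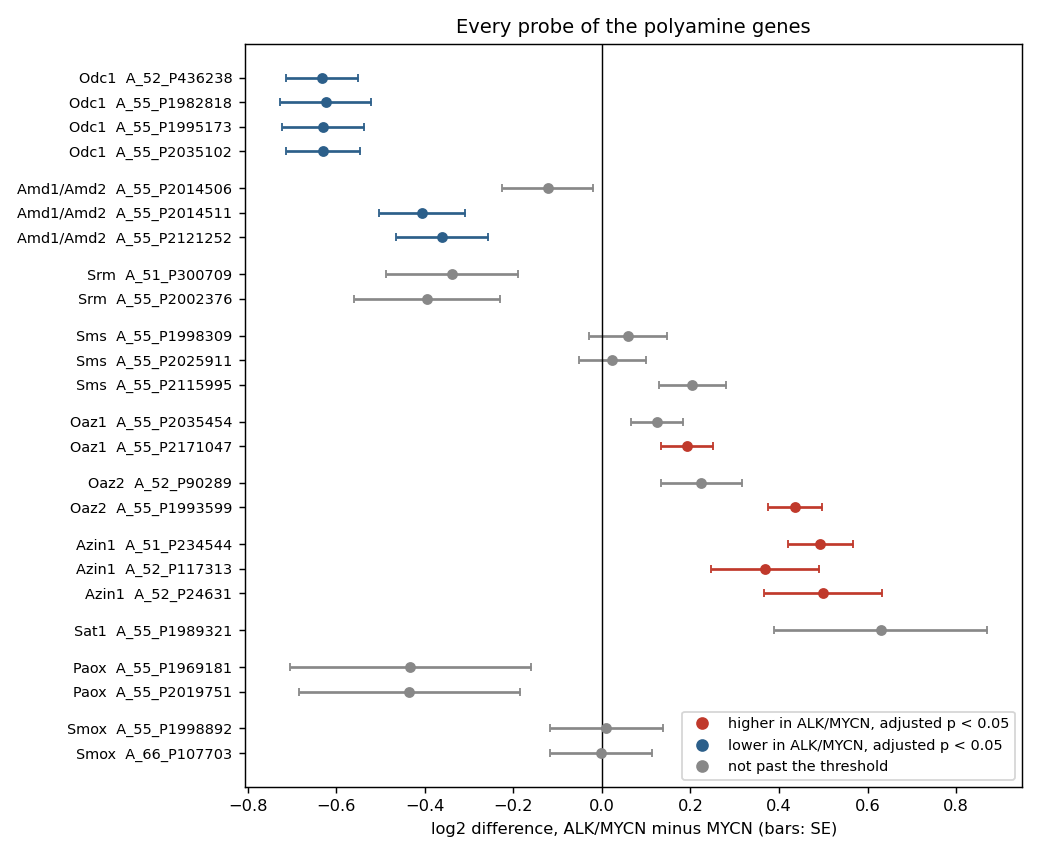
Log2 difference, ALK/MYCN minus MYCN, of every probe of the polyamine genes (points) with its standard error (bars); colour marks an adjusted p under 0.05 over all probes. The 4 Odc1 probes lie together between -0.63 and -0.62, while the Amd1/Amd2 and Oaz2 probes spread.

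Over probes, 8 of the 19 named by the array were called, against 24.9% of all 30857 probes kept. Those 8 were the 4 Odc1 probes, the 3 Azin1 probes and 1 Oaz1 probe. Probes of the same gene are not separate members, so that this share is not read as an excess. All 24 probes, the 5 assigned ones included, were well above background on every array, except A_52_P117313 of Azin1, which was so on 4 of the 5 MYCN arrays.

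Of the controls of ornithine decarboxylase, Azin1 and Oaz2 were higher in ALK/MYCN tumours. Azin1 encodes antizyme inhibitor 1, which resembles ornithine decarboxylase, has no decarboxylase activity and binds antizymes in its place. Its probe A_51_P234544 starts, on the minus strand at chr15:38420086-38420115 (mm9), with this stretch.
Azin1 A_51_P234544: acaggcattaacgcttccttagatctgaag
It read -0.79, -0.66, -0.70, -0.46 and -0.69 in ALK/MYCN tumours and -1.16, -1.24, -1.09, -1.08 and -1.18 in MYCN tumours. No tumours of the 2 genotypes overlapped, and the MYCN tumours lay close together. The difference was 0.49 ± 0.07 SE (interval 0.33 to 0.65, adjusted p = 0.00149), 1.41 times the MYCN level. The other probes gave 0.50 ± 0.13 and 0.37 ± 0.12 SE, both called over probes (adjusted p = 0.0217 and 0.0493). The first of these was lost without ALK/MYCN 5 (0.0544), and the second without any 1 of ALK/MYCN 3, 4 and 5 and MYCN 1, 2, 3 and 4 (0.0742 to 0.113). Both were also lost with slide as a block (0.0813 and 0.0862).

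Oaz1 and Oaz2 encode antizymes, whose translation depends on a ribosomal frameshift that polyamines promote. The Oaz2 probe A_55_P1993599 begins, on the plus strand at chr9:65538045-65538074 (mm9), as follows.
Oaz2 A_55_P1993599: gtgggggtgtcagggagacaagtgtgttgt
It read 1.21, 1.27, 1.23, 1.23 and 1.31 in ALK/MYCN tumours and 0.67, 0.81, 0.85, 0.84 and 0.89 in MYCN tumours. The ALK/MYCN values lay within a narrow range above all MYCN values. The difference was 0.44 ± 0.06 SE (interval 0.30 to 0.57, adjusted p = 0.0011), 1.35 times the MYCN level. The other Oaz2 probe, A_52_P90289, gave 0.22 ± 0.09 SE with overlap and did not pass over probes (adjusted p = 0.0964), though it did with median centring (0.37, 0.0255). Nor did it pass with slide as a block (0.0516) or without any 1 tumour (0.072 to 0.206). Within slides 1, 2 and 3 the Oaz2 difference was 0.60, 0.38 and 0.46, and that of Azin1 was 0.50, 0.43 and 0.48.

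Oaz1 averaged 0.35 ± 0.08 in ALK/MYCN tumours, against 0.22 ± 0.04 in MYCN tumours by its probe of highest intensity (SD, n = 5 each; difference 0.13 ± 0.06 SE, adjusted p = 0.135). ALK/MYCN 2, at 0.22, was the single ALK/MYCN tumour within the MYCN range. With spike-in centring this probe passed (difference 0.33, adjusted p = 0.0115). Its partner probe, which ends in the run of A shown above, read 0.34 to 0.44 in ALK/MYCN tumours, against 0.11 to 0.29 in MYCN tumours, without overlap and passed over probes (0.19 ± 0.06 SE, adjusted p = 0.0385). That call was lost when any 1 tumour other than MYCN 3 was left out (adjusted p over probes 0.0554 to 0.0798), with median centring (0.0615), with no background correction (0.0508) and with slide as a block (0.112).

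**Figure D3:**
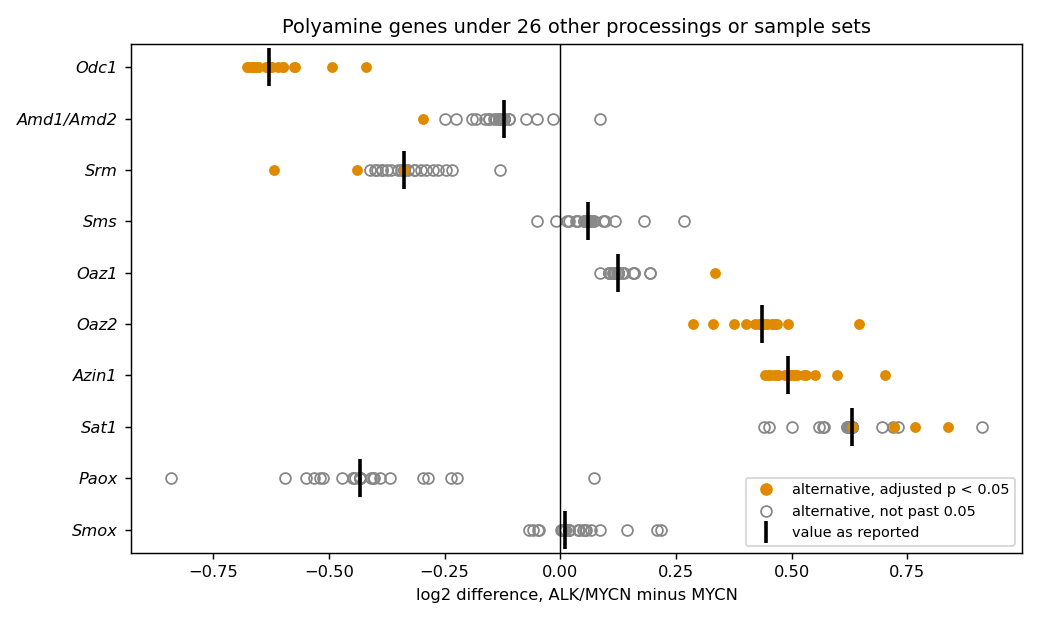
Log2 difference, ALK/MYCN minus MYCN, of each polyamine gene as reported (black ticks) and under 26 other processings or sample sets (circles, filled where the adjusted p was under 0.05). Odc1, Oaz2 and Azin1 stayed on their side of 0 and past the threshold in all 26, and Sat1 stayed above 0 and passed in 4.

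Of the breakdown enzymes, none was called. Sat1 encodes spermidine/spermine N1-acetyltransferase, the inducible step that marks polyamines for oxidation or export; its single probe starts on the minus strand at chrX:151647886-151647915 (mm9).
Sat1 A_55_P1989321: gtgacgttgttgcatgtttgaaattcagtc
It read 0.13, -0.15, 0.41, 1.15 and 0.44 in ALK/MYCN tumours and -0.47, -0.51, 0.13, 0.17 and -0.48 in MYCN tumours. ALK/MYCN 4 was highest, and ALK/MYCN 1 and 2 lay within the MYCN range. The difference of 0.63 ± 0.24 SE (interval 0.09 to 1.17) had an adjusted p of 0.0802, so that it was not called, with a spread between tumours larger than that of Odc1. Without ALK/MYCN 2 it was 0.77 and passed (adjusted p = 0.0445). Within slides 1, 2 and 3 it was 0.33, 0.39 and 0.73. It also passed with each array centred on its median (0.72, adjusted p = 0.0451) or on the spike-in spots (0.84, adjusted p = 0.0163). Sat1 and Sms lie on the X chromosome, and the sex of the mice is not given in the labels; Xist was high in 3 tumours of each genotype.

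Paox encodes peroxisomal N1-acetylpolyamine oxidase, which acts on the acetylated products of Sat1. It read -1.24, -0.86, -0.05, -0.96 and -0.38 in ALK/MYCN tumours and -0.43, -0.61, -0.15, 0.52 and -0.66 in MYCN tumours. The difference of -0.43 ± 0.27 SE (interval -1.04 to 0.18) was not called (adjusted p = 0.271), and the partner probe gave -0.43 as well. ALK/MYCN 3 and MYCN 4, the highest tumour of each genotype, were also the highest for the adipocyte list, at 2.61 against -2.67 to -1.51 in the other ALK/MYCN tumours and at 4.05 against -0.77 to 1.66 in the other MYCN tumours. The list read -2.67, -2.21, 2.61, -1.51 and -2.54 in ALK/MYCN tumours 1 to 5. In MYCN tumours 1 to 5 it read -0.77, 0.22, 1.66, 4.05 and 1.16. The order of the remaining tumours in the adipocyte list was not that of Paox. ALK/MYCN 3 and MYCN 4 were highest of their genotype for fibroblast (-0.07 and 2.41), endothelial (0.12 and 0.90) and macrophage markers (-0.16 and 0.87). The mean of these lists read -1.06, -0.545, -0.04, -0.549 and -0.26 in ALK/MYCN tumours 1 to 5, in the order of Paox. In MYCN tumours 1 to 5 it read -0.67, 0.87, 0.88, 1.39 and -0.03, and below MYCN 4 and 3 the order differed. ALK/MYCN 3 was also the tumour with adrenal cortex markers at 4.12.

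Of the 5 adipocyte genes measured, 1 was lower in ALK/MYCN tumours, Fabp4 (difference -4.31, adjusted p = 0.0252). With a stromal covariate (the averaged lists of fibroblasts, endothelium and macrophages) the Paox difference was 0.07. On slides 1, 2 and 3 it was -0.44, -1.27 and 0.10, without MYCN 4 it was -0.24, and without ALK/MYCN 3, MYCN 2 and MYCN 5 together it was -0.84 (adjusted p = 0.0727). The part of these cells in the Paox values was not tested further.

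**Figure D4:**
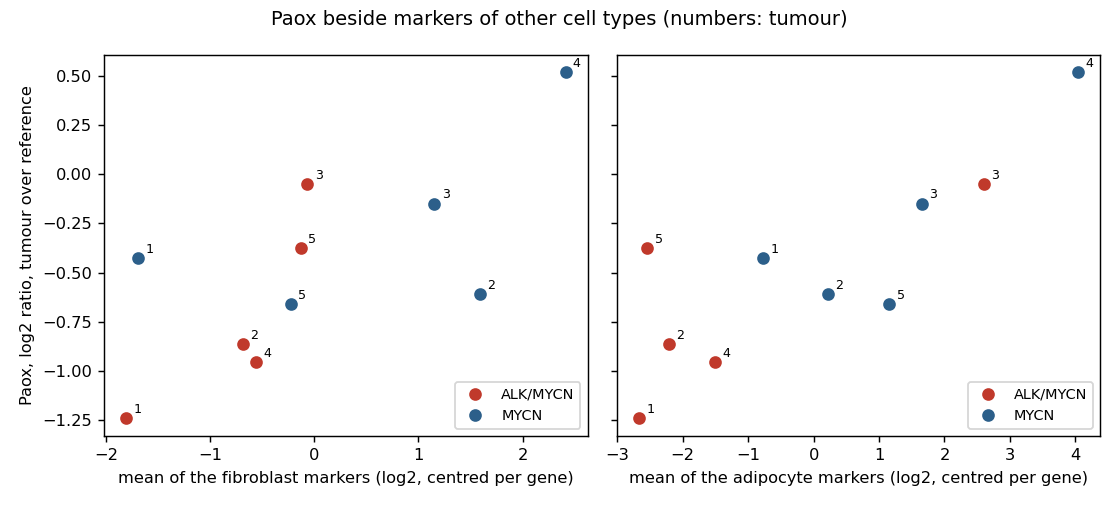
Paox log2 ratio of tumour over reference (y axis) against the mean of the fibroblast (left) and adipocyte (right) marker lists, each as log2 deviation from the gene's mean over the tumours (x axis); points are tumours, numbered as in the text. The highest Paox values, in MYCN 4 (0.52) and ALK/MYCN 3 (-0.05), belong to the tumours highest in adipocyte markers. The same tumours are the highest of their genotype in fibroblast markers.

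Smox encodes spermine oxidase, which turns spermine straight back to spermidine. It averaged -0.89 ± 0.15 in ALK/MYCN tumours, against -0.90 ± 0.26 in MYCN tumours (SD, n = 5 each). The difference was 0.0100 ± 0.13 SE with an interval of -0.28 to 0.30 (adjusted p = 0.963). Its second probe gave -0.0022. Smox differences of either sign within that interval remain compatible with these values.

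The other genes of the pathway were described from lists of precursor supply, S-adenosylmethionine and methylthioadenosine salvage, transport, hypusination and paralogues. Of 30 measured, 2 were higher and 3 lower, against 26.5% called over all genes, with a median difference of 0.0020. The genotypes did not overlap for 4 of them, against 20.0% of all genes. The shares of all genes, 14.2% higher and 12.2% lower, stand beside the counts by list that follow. The 5 called genes also passed with slide as a block. In transport, 2 of 7 measured genes were higher and 1 was lower. Gpc1, a glypican whose heparan sulphate chains take part in polyamine uptake, read -0.96, -0.89, -0.73, -0.14 and -0.39 in ALK/MYCN tumours and -1.91, -1.08, -1.70, -2.00 and -1.43 in MYCN tumours (difference 1.00 ± 0.21 SE, adjusted p = 0.00757). All ALK/MYCN tumours were above all MYCN tumours.

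Atp13a2, a lysosomal polyamine exporter, averaged 1.93 ± 0.14 in ALK/MYCN tumours, against 1.54 ± 0.16 in MYCN tumours (SD, n = 5 each; difference 0.40 ± 0.10 SE, adjusted p = 0.0152) without overlap. It missed the threshold with the stromal covariate (0.34, adjusted p = 0.107), with scanner-processed signals (0.33, adjusted p = 0.052) and with the deposited table (0.33, adjusted p = 0.0521). Slc12a8, reported in cultured cells as a polyamine and amino acid transporter, was lower (difference -0.32 ± 0.10 SE, adjusted p = 0.0387). Leaving out any 1 tumour other than ALK/MYCN 2 or MYCN 4 ended this call (adjusted p 0.0511 to 0.0774), as did median centring (-0.25, adjusted p = 0.0889), spike-in centring (-0.11, adjusted p = 0.468), Cy3 alone (-0.18, adjusted p = 0.333) and the deposited table (-0.58, adjusted p = 0.155). Scanner-processed signals (-0.58, adjusted p = 0.155), no background correction (0.0649) and no filter on dim probes (0.0536) ended it too. So did the mean over probes (0.0545), the replicate number as a block (0.0642) and removal of ALK/MYCN 3, MYCN 2 and MYCN 5 together (0.133).

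Hypusination attaches a residue made from spermidine to the translation factor eIF5A, and 1 of its 4 measured genes was lower. Dohh, the hydroxylase of its second step, averaged 0.49 ± 0.25 in ALK/MYCN tumours, against 0.91 ± 0.16 in MYCN tumours (SD, n = 5 each; difference -0.42 ± 0.13 SE, adjusted p = 0.0341), with overlap at ALK/MYCN 2. The call was lost without any 1 of ALK/MYCN 3, 4 and 5 and MYCN 1, 3, 4 and 5 (adjusted p 0.0504 to 0.0763), with median centring (-0.29, adjusted p = 0.0893) and with spike-in centring (-0.21, adjusted p = 0.282). Dhps, the enzyme of the first step, and the substrates Eif5a and Eif5a2 differed by -0.08, -0.02 and 0.18 and were not called.

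In the methionine branch 1 of 10 measured genes was lower: Ahcy, which hydrolyses S-adenosylhomocysteine, averaged -0.87 ± 0.08 in ALK/MYCN tumours, against -0.47 ± 0.21 in MYCN tumours without overlap (SD, n = 5 each; difference -0.40 ± 0.10 SE, adjusted p = 0.0162). The Ahcy call was lost with median centring (-0.26, adjusted p = 0.124), spike-in centring (-0.19, adjusted p = 0.234) and Cy3 alone (-0.30, adjusted p = 0.0795). It was also lost with scanner-processed signals and the deposited table (-0.45 each, adjusted p = 0.0589 and 0.059). Mtap, which recycles the methylthioadenosine released by both aminopropyltransferases, differed by 0.0039 (adjusted p = 0.987). None of 8 genes of precursor supply was called by limma, and 3 of them had an unadjusted p under 0.05. The widest differences among those were Arg1, the arginase that makes ornithine and is also expressed by macrophages, at -1.39 ± 0.50 SE (adjusted p = 0.0629), and Asl, argininosuccinate lyase, at 1.06 ± 0.37 SE (adjusted p = 0.0569). Without ALK/MYCN 4, in which Asl read -0.88 against 0.80 to 1.02 in the other ALK/MYCN tumours, Asl differed by 1.41 and passed (adjusted p = 0.00291), as it did with median (1.17, adjusted p = 0.028) and spike-in centring (1.27, adjusted p = 0.0268). Arg1 passed without ALK/MYCN 4 or without MYCN 1 (-1.66 each, adjusted p = 0.0396 and 0.0372), and with the stromal covariate it differed by -0.83 (adjusted p = 0.393).

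**Figure D5:**
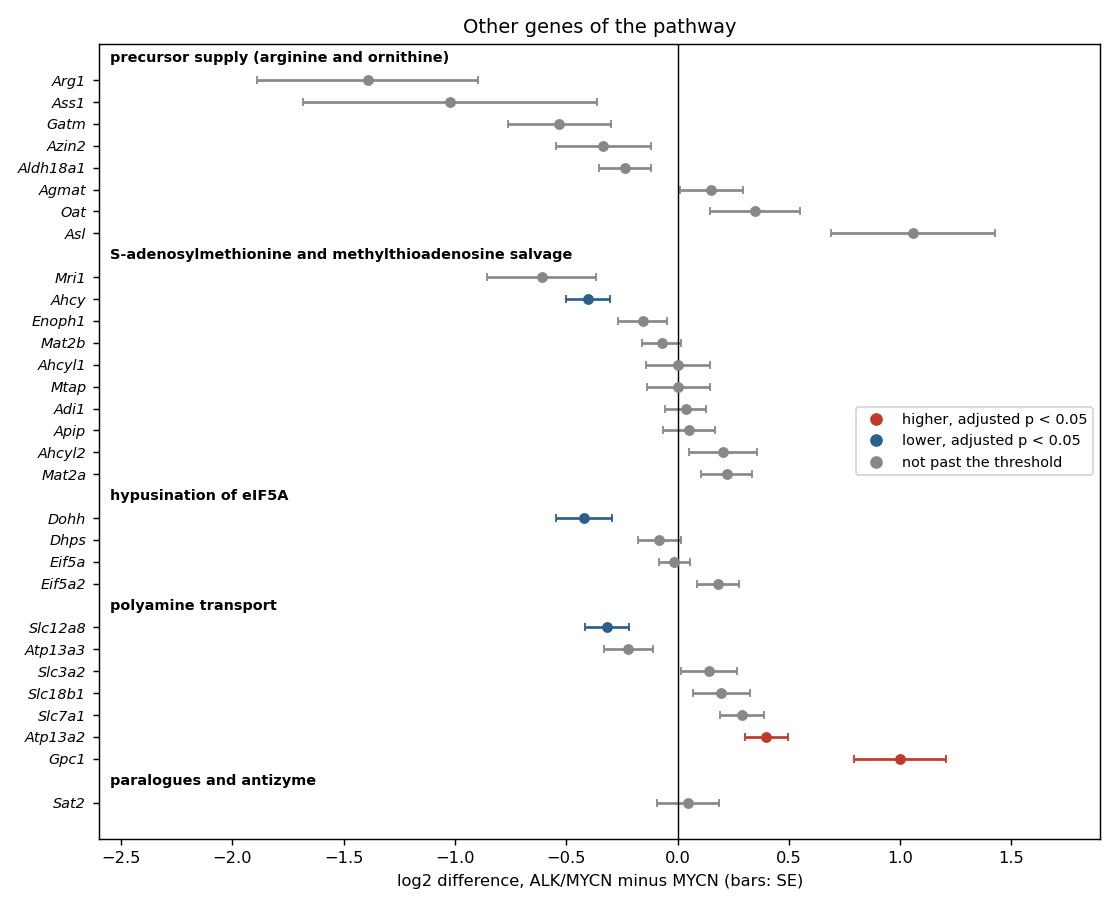
Log2 difference, ALK/MYCN minus MYCN, with standard error (bars), of the other measured genes of the pathway by list; colour marks an adjusted p under 0.05 over all genes. Most genes lie near 0; Gpc1 (1.00) and Atp13a2 (0.40) were higher, and Ahcy (-0.40), Dohh (-0.42) and Slc12a8 (-0.32) lower.

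Within the genotypes, the tumour-to-tumour variation of the Odc1 probe of highest intensity, A_55_P1995173, was compared with that of 14220 other genes. Each genotype mean was subtracted first. The closest over the 10 tumours, as a description, were Gucy2c (Pearson's r = 0.949), Fam50a (0.946), Uggt1 (0.919), Adpgk (0.913) and Pdhx (0.907), none of them called between the genotypes. Among the polyamine genes, Oaz2 (r = -0.739) and Smox (-0.630) varied opposite to that Odc1 probe, and the rest lay between -0.07 and 0.25. The other Odc1 probes were not compared in this way. With each probe centred on its mean, the 4 Odc1 probes stood up to 0.31 apart in a tumour (ALK/MYCN 4), with a median of 0.19. The SD of A_55_P1995173 was 0.11 in ALK/MYCN and 0.17 in MYCN tumours, so that the ranking describes that probe only. All points share the same arrays and their normalisation.

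Promoters of RefSeq (GRCm38.p6; 250 bases before to 50 after a start) were at hand for 8 of the 10 genes and were searched for the canonical E-box CACGTG, which reads the same on both strands. It was found for 1 of the 8 genes, Sms, against 8.09% of all 27025 genes in the table, and in 7.15% of its 32851 promoters. Sms has another promoter there, in which it was not found. The Sms promoter is shown in part because it holds the match (capitals), which begins 196 bases before the start, on the minus strand of the X chromosome at chrX:157492438-157492523.
Sms promoter: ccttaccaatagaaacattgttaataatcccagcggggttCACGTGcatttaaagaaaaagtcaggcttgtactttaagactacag
The window of Odc1 held no match, which says only that these letters are not within it. A match is a description of the sequence and was not tied to the differences above.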

How the data were processed

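Per the file headers, the intensities of 10 two-colour arrays come from version 10.7.3.1 of Agilent Feature Extraction, with probe positions on mm9. No spot was saturated. The deposited scanner log10 ratios of Cy5 over Cy3 were not tested between the genotypes. With their sign turned, they correlated with the deposited table at 0.998 to 0.9998 (Pearson's r per array). The deposited table of log2 ratios equals the log2 of processed Cy3 over Cy5 within 5.01e-04, with column medians of -0.186 to -0.035; it served as an alternative. No source used here gives further steps by the authors.

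From the deposited intensity values, mean signals were corrected by normexp (offset 50) on the median background, normalised by loess within arrays (control spots at weight 0) and turned to tumour over reference. Outlier spots (177 to 345 per array) were left out, spots of a probe averaged, and only probes kept that 5 or more of the 10 arrays marked as well above background in Cy3. This left 30857 probes and, by the probe of highest mean intensity, 22234 genes. Names were matched to RefSeq (GRCm38.p6) for 14153 genes by accession, 840 by symbol and 159 by synonym; 7082 kept the array's name. The test was that of limma 3.58.1 (R 4.3.3, two-sided, Benjamini-Hochberg, threshold 0.05), over genes and again over probes. The fit was tested on simulated data.

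Slides (3, read from the files) were taken as batches: each held both genotypes. The labels call the tumours biological replicates. All polyamine genes are named, with the called genes of the other lists; other genes given with values, Arg1, Asl, Mtap and the hypusination genes that were not called, were chosen after their values were seen. One gene of the transport list and one tissue marker are not reported here and were left out of the counts. Amd2 was counted with Amd1 and not among the other genes of its list. The genes and lists were chosen with earlier results of these data known, and so were the settings tried, which include 3 tumours left out together and a stromal covariate.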

Additional observations from a re-analysis of the deposited data

Results flagged for a closer look

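Among 108 groups of 5 tumours, 7 had a tumour whose gap to the nearest other exceeded Dixon's 95% critical value, while chance gives about 1 in 20 groups. None of the 7 was a probe of the polyamine genes themselves. In precursor supply, Asl read -0.88 in ALK/MYCN 4 (next 0.80), Gatm 0.0098 in ALK/MYCN 5 (next -0.28) and Ass1 0.60 in MYCN 5 (next -2.84). In transport, Slc12a8 read -0.12 in ALK/MYCN 5 (next 0.24). For hypusination, Eif5a2 read 1.07 in ALK/MYCN 4 (next 0.70), Dohh 1.18 in MYCN 1 (next 0.88) and Eif5a 0.90 in MYCN 2 (next 0.71).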

How the results depend on the processing

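Odc1, Azin1 and Oaz2 kept their direction and their call in all 26 alternatives, with differences of -0.68 to -0.42, 0.44 to 0.70 and 0.29 to 0.65. Apart from the mean over probes, each gene was read by its probe of highest intensity. The other Oaz2 probe was called with median centring only. Scaling mattered for the counts. Centring on spike-in spots moved the median difference of all genes from -0.0037 to 0.21 and median centring to 0.09. Spike-in centring gave 7029 higher and 927 lower of all genes, 4 polyamine genes higher, and 7 higher and 0 lower of the other pathway genes. Oaz1 and Sat1 were the polyamine genes added. Median centring gave 4451 higher and 1349 lower of all genes, and 4 higher and 0 lower of the other pathway genes. With spike-in and median centring Odc1 stayed lower, at -0.42 and -0.49. Scanner-processed signals and the deposited table each gave 1 higher and 1 lower of the other pathway genes, and Cy3 alone gave 1 lower. The stromal covariate gave 1541 lower of all genes and 2 lower polyamine genes, Srm being added (-0.62, adjusted p = 0.023). Removal of ALK/MYCN 3, MYCN 2 and MYCN 5 together gave 1540 lower of all genes and 1 lower of the other pathway genes. The mean over probes gave 2 lower polyamine genes, Amd1/Amd2 being added (-0.30, adjusted p = 0.0137). Slide as a block left 5 called probes of the 19, against 8.

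Without single tumours, the count lower of all genes ranged from 1770 (without ALK/MYCN 5) to 2598, polyamine genes lower from 1 to 2, called probes from 5 (without ALK/MYCN 5) to 9, and lower genes of the other lists from 1 to 4. Directions turned only for genes that were not called: Amd1/Amd2 with spike-in centring (0.086), Paox (0.073) and Sms (-0.049) with the stromal covariate, Sms with Cy3 alone (-0.0086), and Smox without ALK/MYCN 5, MYCN 1 or MYCN 2 (without single tumours it ranged from -0.066 to 0.086) or without the 3 tumours together (-0.058). The cause was not tested. With the replicate number as a block (replicate block), 3 polyamine genes were higher and 2 lower, Sat1 (adjusted p = 0.0231) and Srm (adjusted p = 0.0408) being added. Deviations of same-numbered tumours correlated at -0.09 to 0.34, and 1 of the tumours matched its own number best. This did not show a pairing by number, and with so few tumours it cannot exclude one.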
